A study of Mus musculus with 9 samples.

Results

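The genes described here are the cytosolic ribosomal proteins, the proteins that together with ribosomal RNA build the small and the large subunit of the ribosomes of the cytoplasm. They were taken by symbol: Rpl or Rps followed by a number with at most a final a or x, plus Rplp0, Rplp1, Rplp2 and Rpsa. This gave 76 of the 24421 gene symbols in the tables, with 30 proteins of the small subunit, 43 of the large subunit and 3 of the stalk, the arm of the large subunit that binds elongation factors. Of these, 72 had enough reads to be tested. The other 4 were at or near 0 in every library: Rpl26 had no read, Rpl30 at most 2, Rpl34 at most 1 and Rps27 at most 3. Copies of ribosomal protein genes whose names fall outside the rule (Rps3a1, Rpl22l1, Fau, Gnb2l1 and others) are described apart.

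The RNA was that of cells freshly isolated from the intestine at postnatal day 6, from C57BL/6 mice that were either wild type (WT) or labelled IkBa KO (KO), which lack IκBα, the inhibitor that holds NF-κB in the cytoplasm. The labels do not describe the allele. Cells were sorted by an antibody against EphB2, a receptor that is high on cells of the crypt base. There were 2 WT and 3 KO libraries of EphB2-positive cells, and 2 of each genotype of EphB2-negative cells, 4 groups in all, with no other allele or treatment given for any group. Nothing in the labels ties a replicate to an animal, and the p-values therefore describe only how far these samples spread, which may be technical.

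Ribosomal proteins are made in nearly equal numbers, since each ribosome carries a single copy of most of them, and their mRNAs are among the most abundant of a growing cell. Many of these mRNAs begin with a cytosine followed by a run of pyrimidines, the 5′ terminal oligopyrimidine (TOP) element, through which mTOR signalling and the protein LARP1 set their translation and stability. Ribosome biogenesis, the making of ribosomal RNA and its assembly with these proteins in the nucleolus, is driven in part by Myc. In the intestine it is high in the dividing cells of the crypt and declines as cells differentiate.

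The starts of several of these genes are shown because the TOP element lies there. Each line gives the 10 bases before the annotated start and the first 20 bases of the transcript on GRCm38.p6, from RefSeq, with the longest run of at least 5 pyrimidines in capitals. Rps6, Rpl38, Rpl14, Rps15a and Rpl28 carry runs that span the start itself, and in Rpl12 and Rpl13a the run begins just after it. For Rpl5 the GENCODE gene model begins upstream of the window shown, so a run at that start would not be seen. Rpl14, Rpl12, Rps15a and Rpl5 are among the members that differed most between the sorts in KO, and Rpl28, Rpl13a and Rps28 among those that differed least there.
Rps6 (chr4:86857348-86857377, minus strand): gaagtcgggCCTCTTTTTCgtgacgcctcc
Rpl38 (chr11:114668570-114668599, plus strand): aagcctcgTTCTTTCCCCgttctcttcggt
Rpl14 (chr9:120571507-120571536, plus strand): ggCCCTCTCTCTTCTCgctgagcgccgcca
Rpl12 (chr2:32961702-32961731, plus strand): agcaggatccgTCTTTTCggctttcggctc
Rps15a (chr7:118116128-118116157, minus strand): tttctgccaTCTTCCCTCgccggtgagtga
Rpl5 (chr5:107900518-107900547, plus strand): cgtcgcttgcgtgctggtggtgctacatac
Rpl28 (chr7:4792955-4792984, plus strand): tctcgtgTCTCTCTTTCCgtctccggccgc
Rpl13a (chr7:45128726-45128755, minus strand): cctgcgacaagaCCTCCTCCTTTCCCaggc
Rps28 (chr17:33824543-33824572, minus strand): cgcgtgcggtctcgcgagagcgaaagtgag

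RefSeq starts were found for 56 of the 76 members, with 66 windows in all, since some genes have several starts. A pyrimidine run of at least 5 bases lay in 44 of the 66 windows (66.7%), against 46.4% of the 32851 windows of all genes. A run of at least 8 bases lay in 23 windows (34.8%, against 11.2%). In the sort comparison of KO cells, described below, the median log2 fold change was 0.53 for the 21 tested members with a run of at least 8, 0.56 for the 17 with a run of 5 to 7 and 0.34 for the 15 with none. In the same order it was 0.61, 0.61 and 0.59 between the sorts of WT, -0.33, -0.27 and -0.33 for KO against WT in EphB2-positive cells, and -0.25, -0.20 and -0.13 for KO against WT in EphB2-negative cells.

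Wider promoter windows ran from 250 bases before to 50 bases after each start and were searched on both strands, each motif on its own. CGGAAG, the core bound by ETS factors such as GABPA, was present in 41 of the 66 member windows (62.1%), against 16.9% of all windows. The E-box CACGTG, bound by Myc with Max, was present in 8 (12.1%, against 7.15%), and TATAAA in 6 (9.09%, against 13.6%). The κB consensus, bound by NF-κB dimers, was present in 7 (10.6%, against 8.46%). These are matches of letters, and nothing here measured binding.

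Depth ran from 1503972 to 2074076 reads in genes, and levels are given as CPM, a gene's reads relative to the scaled total of its library. Nfkbia, which encodes IκBα, had 47 to 163 reads in the WT libraries and none in any of the 5 KO libraries. Replicate 1 of the WT EphB2-negative group took a place between the sorts. Its summed pan-leukocyte markers stood at 134 CPM, against 1150 CPM in replicate 2 and 65.1 to 113 CPM in the EphB2-positive libraries. Its summed enterocyte markers stood at 14400 CPM against 32900 CPM in replicate 2. The pair of WT EphB2-negative libraries also spread more widely than any other, with a chi-square per degree of freedom of 304 over the members, against 3.13 to 29.1 for the other 5 replicate pairs. The counts and medians of the members that rest on this pair are given with and without each of its libraries, and values of single genes come from the fit of all 9 libraries unless stated. In bulk RNA, fewer cells of a type and less RNA per cell cannot be told apart.

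Ribosomal protein mRNAs took a large share of all reads, and that share was highest in WT EphB2-positive cells. They held 9.64% and 8.52% of the reads in genes of the WT EphB2-positive libraries. In the KO EphB2-positive libraries they held 6.9%, 6.92% and 7.28%. All 3 KO libraries were below both WT libraries, at 7.03 ± 0.214% (SD, n = 3) against 9.08 ± 0.792% (SD, n = 2). In EphB2-negative cells the share was 7.63% and 4.07% in WT and 4.69% and 3.77% in KO, so that the KO pair straddled WT replicate 2. The exact binomial 95% intervals of these shares were narrow, for example 9.6 to 9.68% and 6.86 to 6.94% for replicate 1 of the WT and KO EphB2-positive groups, but the interval holds counting error alone, because the cDNA was amplified before sequencing. The subunits kept their proportions: the large subunit had 1.27 to 1.36 times the reads of the small subunit in all 9 libraries.

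**Figure D1:**
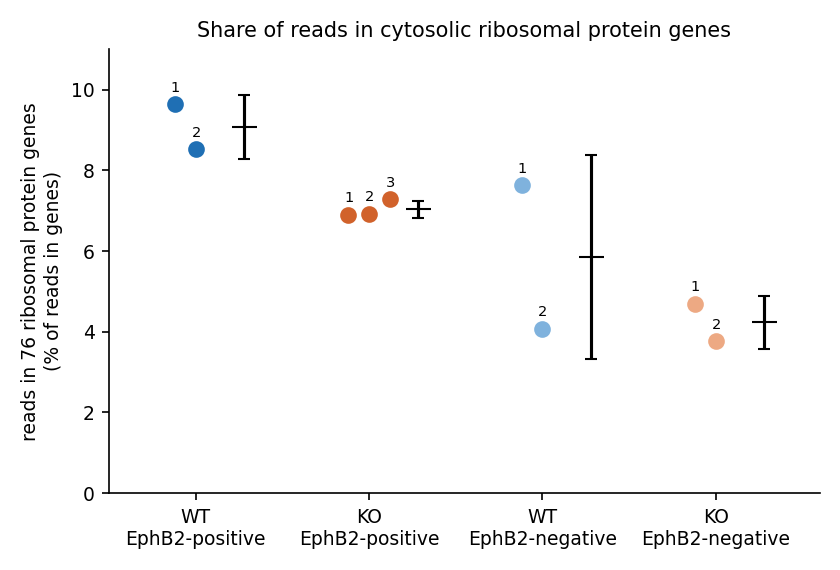
Share of reads in genes that fell in the 76 ribosomal protein genes (%, y axis) in the 4 groups, with 1 point per library, numbered by replicate, and the mean ± SD of each group as a bar. The 3 KO EphB2-positive libraries (6.9 to 7.28%) sit below both WT EphB2-positive libraries (8.52 and 9.64%), and the WT EphB2-negative libraries lie far apart.

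The 72 members moved as a block from library to library. For each gene the log2 CPM in a library was set against the gene's own mean over the 9 libraries. The median of this difference over the members was 0.51 and 0.32 in the WT EphB2-positive libraries, and 0.12, 0.09 and 0.18 in the KO EphB2-positive libraries. It was 0.21 and -0.69 in the WT EphB2-negative libraries and -0.25 and -0.45 in the KO EphB2-negative libraries. All 72 members were above their own mean in both WT EphB2-positive libraries, and all 72 were below it in WT EphB2-negative replicate 2 and KO EphB2-negative replicate 2. Within a library the interquartile range of the members was 0.11 to 0.29 on this scale, against 0.52 to 1.18 for all genes tested. The medians of the small and the large subunit differed by little in every library. They were, for example, 0.53 and 0.50 in WT EphB2-positive replicate 1 and -0.71 and -0.66 in WT EphB2-negative replicate 2. The median of the stalk genes lay further off in some libraries, at -0.99 in WT EphB2-negative replicate 2 and 0.03 in replicate 1 of that group.

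**Figure D2:**
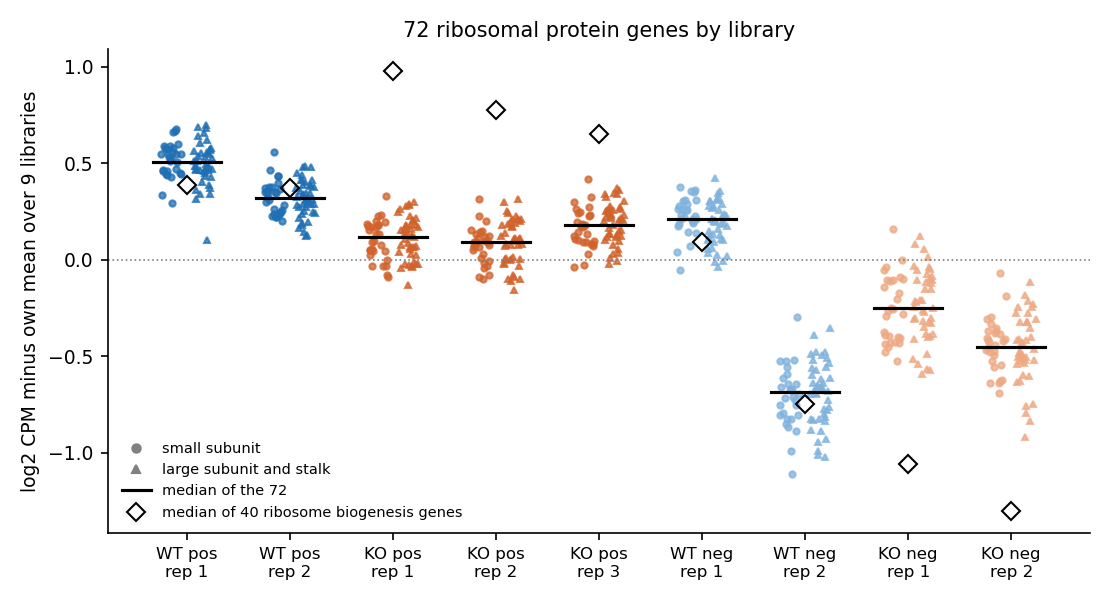
Log2 CPM of each of the 72 tested members minus its own mean over the 9 libraries (y axis), by library; circles are small subunit genes, triangles large subunit and stalk genes, black lines the median of the 72 and open diamonds the median of 40 ribosome biogenesis genes. In the KO EphB2-positive libraries the diamonds (0.65 to 0.98) stand above the members' medians (0.09 to 0.18), and in the KO EphB2-negative libraries they stand below them.

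Levels between members were compared only per length, as TPM, reads per base relative to the sum over genes, taken over the union of each gene's exons in GENCODE. In WT EphB2-positive cells the highest level was that of Rplp1, a stalk protein, at 10300 ± 1340 TPM (SD, n = 2). It was followed by Rplp0, the base of the stalk, at 6610 ± 394 TPM, by Rps15 at 6020 ± 511 TPM and by Rps2 at 5630 ± 221 TPM. Rps15 differed from neither neighbour in this order by more than the summed SDs. The lowest of the tested members were Rpl22 at 512 ± 50.7 TPM and Rps15a at 364 ± 6.25 TPM. The median member stood at 1840 TPM in WT EphB2-positive, 1280 in KO EphB2-positive, 1160 in WT EphB2-negative and 718 in KO EphB2-negative cells. Ranks by the mean over all 9 libraries depend on the transcript taken as the gene's length. With the length of the coding transcript, an alternative chosen after seeing the data, Rps2 ranked 1 and Rplp1 2, while Rps15a moved from rank 72 to 52 and Rps16 from 27 to 67.

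Loss of IκBα in EphB2-positive cells went with lower levels of nearly all members, but no member passed the test across all 9 libraries. Rpl37a, a protein of the large subunit, had 715 and 659 CPM in the WT libraries and 508, 442 and 492 CPM in the KO libraries. Rps29, of the small subunit, had 869 and 695 CPM in WT and 563, 563 and 580 CPM in KO. In both genes every KO library lay below every WT library. The log2 fold change was -0.52 ± 0.21 for Rpl37a and -0.46 ± 0.21 for Rps29 (edgeR quasi-likelihood adjusted p = 0.13 and 0.19).

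Over the 72 members the median log2 fold change was -0.33 (a fold of 0.794), against -0.01 for all genes tested, and 69 members were below 0. The KO and WT libraries did not overlap, with KO lower, in 59 members, against 28.6% of all 11577 genes tested. They did not overlap with KO higher in 2 members, against 26.9%. With edgeR, 0 of the 72 passed an adjusted p under 0.05, while 15.1% of all genes did (7.01% higher and 8.07% lower). One member had an unadjusted p under 0.05. DESeq2 also called 0 of the 72, and limma's voom with quality weights called 28, all lower, against 16.1% of all genes lower.

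The count also changed with the libraries in the fit. The EphB2-negative pair of WT has no part in this contrast but shares its estimate of spread, and its part in the count was not tested. With the EphB2-positive libraries alone, 50 of the 72 members fell, against 18.1% of all genes, and none rose. Without WT EphB2-negative replicate 1, 36 members fell (against 14.1% of all genes), and without replicate 2, 38 fell (against 14.5%). The median stayed at -0.34, -0.32 and -0.33 in those fits. With the EphB2-positive libraries alone, Rpl37a had a log2 fold change of -0.52 and Rps26 one of -0.47 (adjusted p = 0.00027 and 0.0015).

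A few members stood apart from this shift. Rps2, a small subunit protein near the mRNA entry, had 3070 and 2880 CPM in WT and 3150, 3110 and 3350 CPM in KO. Rpl10, which is loaded late onto the large subunit, had 1390 and 1410 CPM in WT and 1440, 1480 and 1600 CPM in KO. These 2 were the members whose KO libraries all lay above WT, with log2 fold changes of 0.11 ± 0.27 and 0.11 ± 0.17. The largest difference in the other direction was that of Rpl37a, given above. The stalk proteins lay nearer to 0 than the median member, at -0.12 for Rplp1, -0.13 for Rplp0 and -0.20 for Rplp2, and in none of these 3 were the groups free of overlap. Across the 72 members the log2 fold change rose with coding length (Spearman rho 0.41, against -0.01 over 10930 genes with a coding length), a description over genes measured in the same libraries. The median was -0.36 for the 24 members with the shortest coding sequence (138 to 408 bases), -0.35 for the middle 24 and -0.22 for the 24 with the longest (588 to 1257 bases).

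Most genes that make ribosomes had the opposite sign to the proteins of the ribosome in EphB2-positive cells. Of 40 genes of ribosome biogenesis and the nucleolus, 38 were above 0 and 5 rose in KO, against 7.01% of all genes. Their median was 0.43 and none fell. The KO and WT libraries did not overlap, with KO higher, in 30 of the 40, a larger share than among all genes. Ddx21, a nucleolar helicase that couples polymerase I transcription to rRNA processing, rose by 1.00 ± 0.21 on the log2 scale (adjusted p = 0.011). Rrn3, which recruits polymerase I to the ribosomal RNA genes, rose by 0.78 ± 0.16 (adjusted p = 0.010), and Bysl, a factor of small subunit maturation, by 0.88 ± 0.21 (adjusted p = 0.019). With the EphB2-positive libraries alone, 24 of the 40 rose, against 17.8% of all genes. Leaving out a KO EphB2-positive library lowered the share of all genes that rose to between 3.11 and 4.13%. Leaving out a WT EphB2-positive library lowered it further. Of 28 translation initiation factors 6 rose (against 7.01% of all genes) and none fell, with a median of 0.40. Among the 6 was Eif1a at 1.03 ± 0.15 (adjusted p = 0.0022), which helps select the start codon. Another was Eif6 at 0.70 ± 0.15 (adjusted p = 0.015), which keeps the large subunit from joining too early. Of 20 elongation factors and other TOP mRNAs none passed (median -0.09), and of 77 mitochondrial ribosomal proteins 1 rose (median 0.03). Of the initiation factors 17 rose and none fell with the EphB2-positive libraries alone, against 17.8% of all genes higher and 18.1% lower. Of the mitochondrial ribosomal proteins 12 rose and 4 fell in that fit, near or below those shares.

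Markers of the cell types of the epithelium also differed between the genotypes in this sort. The summed enterocyte markers stood at 3060 and 5060 CPM in the WT EphB2-positive libraries and 1580 to 1840 CPM in KO, and 8 of 15 fell. The summed intestinal stem cell markers stood at 5390 and 4950 CPM in WT and 2680 to 3760 CPM in KO. Of the 14 tested Prom1 and Sp5 rose, Rnf43 and Sox4 fell, and the others did not pass the test. Of 11 goblet and Paneth cell markers 2 rose, with a median of 1.26. The summed cell cycle genes were close, at 4080 and 3950 CPM in WT and 4140 to 4190 CPM in KO, and the summed pan-leukocyte markers were 67.8 and 65.1 CPM in WT and 94.1 to 113 CPM in KO. In this comparison 7.01% of all genes rose and 8.07% fell. The part of these marker differences in the members' lower levels was not tested.

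**Figure D3:**
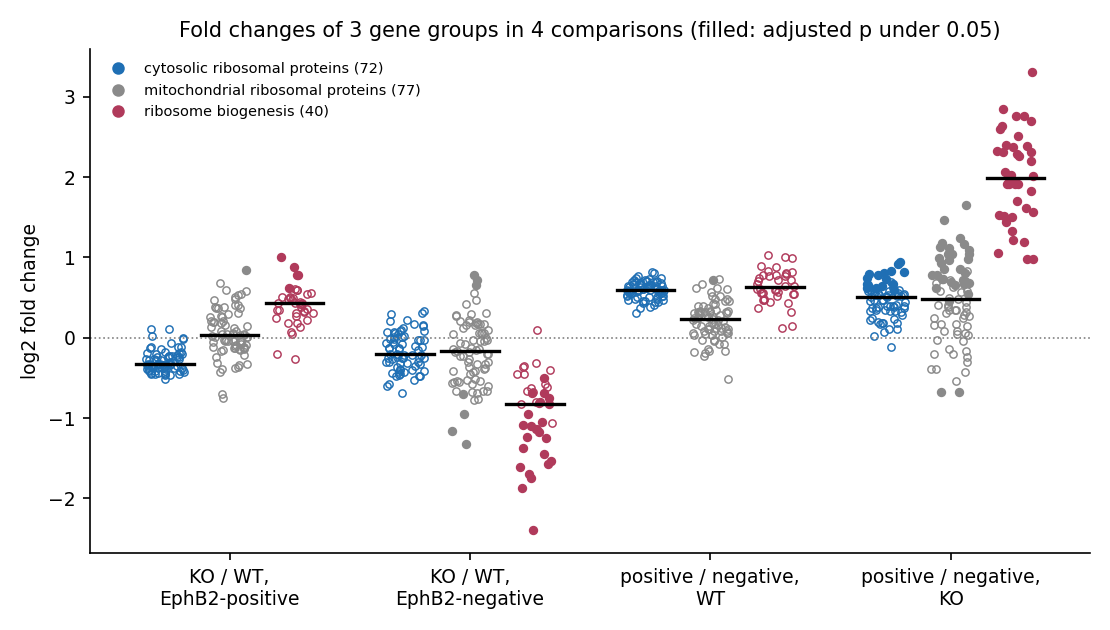
Log2 fold change (y axis) of cytosolic ribosomal proteins, mitochondrial ribosomal proteins and ribosome biogenesis genes in 4 comparisons, with 1 point per gene, filled where the adjusted p is under 0.05, and black lines at the medians. In EphB2-positive cells the cytosolic members lie below 0 (median -0.33) and the biogenesis genes above it (0.43), and in the sort comparison of KO all 40 biogenesis genes are filled.

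In EphB2-negative cells the genotype effect on the members took its direction from WT EphB2-negative replicate 1. With both WT libraries, the median log2 fold change of KO against WT was -0.20, against -0.09 for all genes, 53 of 72 members were below 0, and 0 passed the test, while 29.9% of all genes did. One member had an unadjusted p under 0.05, and DESeq2 and voom also called none. The groups did not overlap, with KO lower, in 3 members, against 34.6% of all genes, and with KO higher in none, against 28.7%. Without replicate 1 the median was 0.35 and 30 members rose (against 14.4% of all genes). Without replicate 2 it was -0.56 and 52 members fell (against 24.5%). With the EphB2-negative libraries alone none of the 72 was called, against 1.05% of all genes higher and 0.299% lower. With 1 WT library left in the fits without the other, its spread is assumed to be that of the other groups.

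Rps19, a small subunit protein needed for 18S rRNA maturation, shows the split. It had 754 and 327 CPM in the WT EphB2-negative libraries and 549 and 511 CPM in the KO libraries. Both KO values lay between the WT values, and the log2 fold change was -0.03 with both WT libraries and 0.70 without replicate 1. At the low end of the members stood Rpl22 and Rpl5. Rpl22 had 382 and 167 CPM in WT and 192 and 150 CPM in KO, and Rpl5 had 1490 and 832 CPM in WT and 844 and 687 CPM in KO. Their log2 fold changes were the lowest with both WT libraries, at -0.68 ± 0.32 and -0.60 ± 0.25 (adjusted p = 0.13 and 0.097). Rps29 had 612 and 363 CPM in WT and 664 and 567 CPM in KO, the highest log2 fold change of the members at 0.34 ± 0.24 (adjusted p = 0.30). All 3 values depended on the WT library: without replicate 1 they were 0.03 for Rpl22, -0.12 for Rpl5 and 0.76 for Rps29. Without replicate 2 they were -1.17 for Rpl22, -0.96 for Rpl5 and 0.00 for Rps29.

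The biogenesis genes were lower in KO EphB2-negative cells whichever WT library was left out. With both, 24 of 40 fell and none rose, with a median of -0.83, while 16.2% of all genes fell. Nop58, a core protein of the snoRNPs that guide methylation of rRNA, fell by 1.54 ± 0.24 (log2, adjusted p = 0.0023), and Ncl, the abundant nucleolar protein nucleolin, fell by 1.18 ± 0.24 (adjusted p = 0.0074). Without replicate 1 the median was -0.46 and 10 fell, and without replicate 2 it was -1.16 and 35 fell. With the EphB2-negative libraries alone none of the 40 was called, against 1.35% of all genes. In the KO EphB2-negative libraries the summed pan-leukocyte markers stood at 1710 and 1320 CPM and the summed cell cycle genes at 958 and 779 CPM, against 3100 and 1280 CPM of cell cycle genes in WT. Of the 14 stem cell markers 8 fell, with a median of -2.21. All 6 markers of mesenchyme, endothelium and nerve were above 0, with no overlap between the genotypes and a median of 2.42, and 1 of them, Acta2, rose. Their part in the result was not tested.

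Between the sorts, EphB2-positive cells held more ribosomal protein mRNA than EphB2-negative cells in both genotypes. In WT the median log2 fold change was 0.60 (a fold of 1.51), against -0.02 for all genes, and all 72 members were above 0, up to 0.81 for Rps19. The 2 sorts did not overlap, with EphB2-positive higher, in 58 members, against 26.5% of all genes. With edgeR 0 of the 72 passed, against 4.43% of all genes (0.656% higher), 39 had an unadjusted p under 0.05, DESeq2 called 3 and voom called none. Without WT EphB2-negative replicate 1 all 72 rose, with a median of 1.11 (against 18% of all genes called higher), and without replicate 2 none was called, with a median of 0.20. With the WT libraries alone none was called either, and among all genes 0.00935% were, all of them lower.

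In WT Rps19 had 943 and 958 CPM in EphB2-positive cells and 754 and 327 CPM in EphB2-negative cells. Rplp0, the base of the stalk, had 3310 and 3020 CPM against 2490 and 1220 CPM. Rps6, the substrate of S6 kinase, had 1740 and 1620 CPM against 1480 and 797 CPM. In each of these genes both EphB2-negative libraries lay below both EphB2-positive libraries, replicate 1 by much less than replicate 2. Their log2 fold changes were 0.81, 0.77 and 0.56, with adjusted p of 0.13 for the first 2. They were 1.54, 1.38 and 1.07 without WT EphB2-negative replicate 1, and 0.32, 0.33 and 0.16 without replicate 2.

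In KO, where the EphB2-negative pair was tighter, 16 of the 72 members rose in EphB2-positive cells and none fell. Among all genes 26.4% rose and 29.2% fell, so the count by itself is no result about the members. Their median was 0.51, against -0.02 for all genes, 71 of 72 were above 0, and the sorts did not overlap, with EphB2-positive higher, in 61 members, against 37.7% of all genes. With the KO libraries alone 58 of the 72 rose (against 32.1% of all genes), and 59 rose without WT EphB2-negative replicate 1 (against 29.6% of all genes, with 33.6% lower and 63.2% called in all) or without its replicate 2 (against 30%). Leaving out a KO library left few calls: 7 without KO EphB2-positive replicate 1 or 2 (against 22.6 and 21.7% of all genes higher), 2 without its replicate 3 (against 22.2%), 2 without KO EphB2-negative replicate 1 (against 19.3%) and 0 without its replicate 2 (against 17.1%). Leaving out WT EphB2-positive replicate 2 left 10 (against 23.5%).

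The largest differences were those of large subunit genes. Rpl22, which binds RNA and has a paralog, Rpl22l1, had 338, 310 and 340 CPM in EphB2-positive and 192 and 150 CPM in EphB2-negative cells of KO (chromosome 4, 152325742 to 152334071 on GRCm38). Rpl5, which carries the 5S rRNA into the ribosome with Rpl11, had 1490, 1410 and 1440 CPM against 844 and 687 CPM (chromosome 5, 107900502 to 107909005). No library of one sort reached the range of the other in either gene. Rpl22 rose by 0.95 ± 0.30 on the log2 scale (adjusted p = 0.024) and Rpl5 by 0.92 ± 0.23 (adjusted p = 0.0082).

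The next members were Rpl12, at the base of the stalk, with 0.84 ± 0.27 (adjusted p = 0.023), Rpl14 with 0.82 ± 0.25 (adjusted p = 0.018) and Rpl3, near the peptidyl transferase centre, with 0.81 ± 0.24 (adjusted p = 0.018). Of the small subunit Rps15a rose by 0.80 ± 0.21 (adjusted p = 0.0087), Rps4x by 0.62 ± 0.23 (adjusted p = 0.046) and Rps27a, which is made as a fusion to ubiquitin, by 0.62 ± 0.22 (adjusted p = 0.036). In all, 12 of 40 tested large subunit genes and 4 of 29 small subunit genes rose, against 26.4% of all genes. None of the 3 stalk genes did. Rpl5 and Rps15a kept their call in 17 of 19 alternative analyses, Rps27a and Rps4x in 8.

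At the other end, several members were close to 0 between the sorts of KO. Rps29 had 563, 563 and 580 CPM in EphB2-positive and 664 and 567 CPM in EphB2-negative cells. Rpl28 had 731, 699 and 749 CPM against 771 and 655 CPM, and Rpl13a, a protein also known for a role in silencing inflammatory mRNAs, had 662, 731 and 754 CPM against 765 and 597 CPM. The sorts overlapped in Rps29, Rpl28 and Rpl13a. Their log2 fold changes were -0.11 ± 0.22, 0.03 ± 0.26 and 0.07 ± 0.21, and that of Rps28 was 0.10 (adjusted p from 0.67 to 0.94 for the first 3). In WT the same genes were higher in EphB2-positive cells by 0.68 for Rps29 and 0.48 for Rpl13a, neither past the test.

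**Figure D4:**
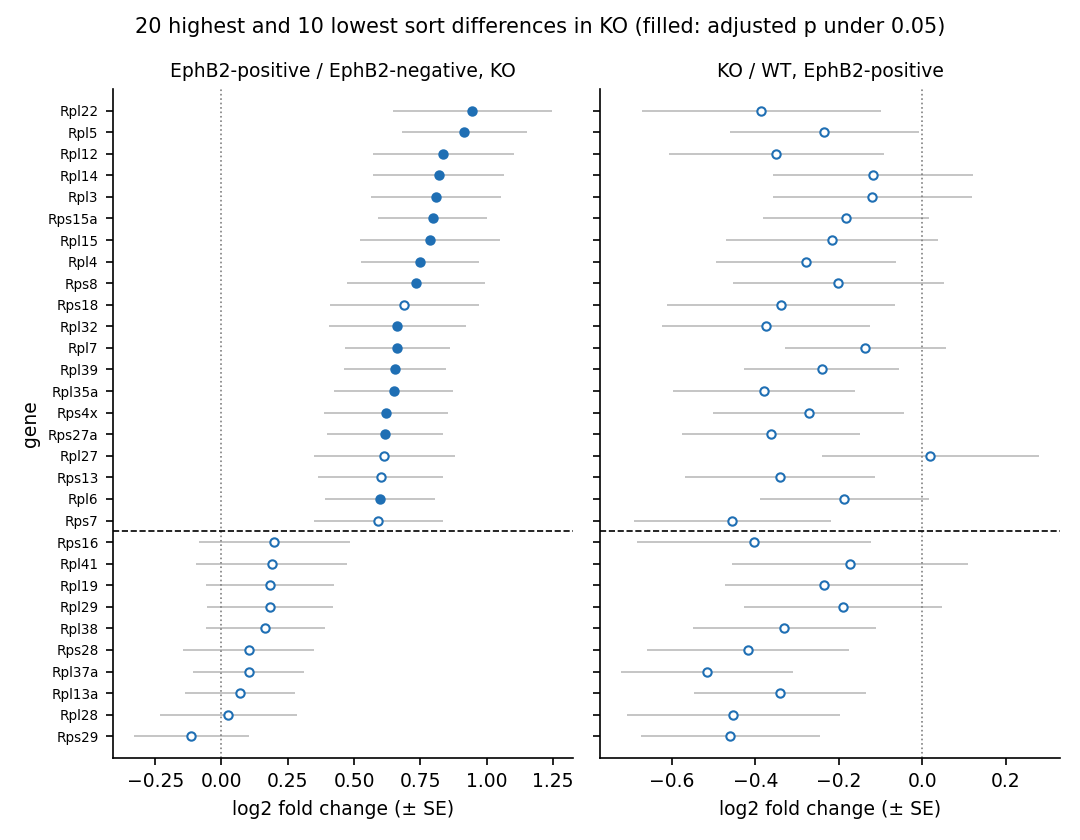
Log2 fold change ± SE (x axes) of 30 members, those whose sort difference in KO ranked among the top 20 or the bottom 10, with 1 line per gene and a dashed line between the sets, for EphB2-positive against EphB2-negative cells in KO (left) and KO against WT in EphB2-positive cells (right), filled where the adjusted p is under 0.05. Genes are ordered by the left panel, from Rpl22 at 0.95 to Rps29 at -0.11, and all 16 members that rose there are among the upper 20.

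The biogenesis genes had larger differences between the sorts of KO than the members. All 40 rose in EphB2-positive cells, with a median of 1.98, from 0.98 for Polr1c to 3.31 for Polr1b, both subunits of RNA polymerases that make ribosomal RNA. Ncl had 2800, 2680 and 2360 CPM in EphB2-positive and 575 and 474 CPM in EphB2-negative cells of KO. In WT it had 1800 and 1650 CPM against 1470 and 899 CPM. Of the initiation factors 23 of 28 rose and 1 fell (median 0.92). Of elongation factors and other TOP mRNAs 14 of 20 rose and 1, Vim, fell (median 0.83). Of mitochondrial ribosomal proteins 31 of 77 rose and 2 fell (median 0.49). Among all genes 26.4% rose and 29.2% fell in this comparison. The TOP mRNAs with the largest rise, such as Npm1 at 2.47 ± 0.28 (adjusted p = 0.00011) and the snoRNA host Snhg1 at 2.26 ± 0.32 (adjusted p = 0.00042), encode a nucleolar protein and snoRNAs.

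The sorts also differed in their cells. In KO all 11 pan-leukocyte markers were lower in EphB2-positive cells, with summed levels of 94.1 to 113 CPM against 1320 and 1710 CPM, and Ptprc (CD45) had 0, 0 and 1 reads against 220 and 180. In WT all 11 were below 0 and none was called, with Ptprc at 0 and 0 reads in EphB2-positive cells and 17 and 346 in EphB2-negative cells. All 15 enterocyte markers fell in KO EphB2-positive cells, and all 15 cell cycle genes rose. Among all genes 29.2% fell and 26.4% rose between the sorts of KO. When the pan-leukocyte score was added as a covariate, which itself follows the sort, the KO sort effect on the members had a median of -0.89, with none higher and 10 lower, against 2.72% of all genes higher and 4.98% lower. The part of leukocytes, enterocytes and dividing cells in the members' levels was not tested.

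Whether the genotype effect differed between the sorts was tested directly, as the effect in EphB2-positive minus that in EphB2-negative cells. In the fit of all libraries 0 of 72 members passed, against 12.4% of all genes (6.54% higher and 5.81% lower), with a median of -0.11 and 1 member under an unadjusted p of 0.05. DESeq2 and voom called none either. Without WT EphB2-negative replicate 1 the median was -0.65 and 40 members were lower and none higher (against 9.5 and 9.71% of all genes), and without replicate 2 it was 0.27 and 13 were higher (against 17.8%). For the biogenesis genes the same test gave 20 of 40 higher (against 6.54% of all genes) and none lower, with a median of 1.31. Without WT EphB2-positive replicate 2 or KO EphB2-negative replicate 2 far fewer of all genes passed, so not all 20 calls can hold there.

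The list of ribosomal protein genes outside the rule held 15 symbols, among them Rps3a and Rack1, second names of Rps3a1 and Gnb2l1. From this list 9 genes were tested, and 4 of these rose and none fell in the sort comparison of KO. Among all genes 26.4% rose and 29.2% fell there. Rps3a1, the mouse gene for the S3a protein of the small subunit, rose by 0.70 ± 0.23 (adjusted p = 0.025), and Gnb2l1, which encodes the scaffold RACK1 of the small subunit, rose by 0.67 ± 0.24 (adjusted p = 0.039). Rpl7l1, a paralog of Rpl7 that acts in ribosome assembly, rose by 0.85 ± 0.17 (adjusted p = 0.0025). Fau, made as a fusion to a ubiquitin-like protein, had the other sign. It had 475, 467 and 442 CPM in KO EphB2-positive and 712 and 571 CPM in KO EphB2-negative cells, and 611 and 526 CPM against 485 and 314 CPM in WT. Its sort difference was -0.48 ± 0.20 in KO (adjusted p = 0.062) and 0.51 ± 0.22 in WT (adjusted p = 0.16). In EphB2-negative cells Fau rose in KO by 0.68 ± 0.22 (adjusted p = 0.040), a call kept in 9 of 18 alternatives and lost with the EphB2-negative libraries alone.

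Rpl22l1, the paralog of Rpl22, had 174 and 118 CPM in EphB2-positive cells of WT and 159, 144 and 126 CPM in those of KO. In EphB2-negative cells it had 196 and 134 CPM in WT and 95.3 and 77.1 CPM in KO. The lowest values were those of the KO EphB2-negative pair. KO was lower in EphB2-negative cells by 0.94 on the log2 scale (-0.94 ± 0.25, adjusted p = 0.020), a call lost in 5 of 18 alternatives, the EphB2-negative libraries alone among them. Between the sorts it was -0.18 ± 0.24 in WT, where Rpl22 was 0.65, and 0.73 ± 0.23 in KO (adjusted p = 0.022), where Rpl22 rose by 0.95.

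Base composition varied with the order of the members. Across the 72, the G+C content of the coding transcript had a Spearman rho of 0.56 with the log2 fold change of KO against WT in EphB2-negative cells, and of -0.40 with that of the sorts in KO. Over the 11185 genes tested with a transcript match the values were 0.28 and -0.23. For the sorts in WT and for KO against WT in EphB2-positive cells the values over members were 0.33 and 0.13. When WT EphB2-negative replicate 1 or 2 was left out, the value for KO against WT in EphB2-negative cells was 0.595 or 0.505, and that for the sorts in WT 0.34 or 0.22. These are descriptions across genes that share the same libraries, and their part in the order of the members was not tested. Rpl28 has 60.4% and Rps29 53.1% G+C, against 42.7% in Rpl5 and 47.3% in Rpl22.

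**Figure D5:**
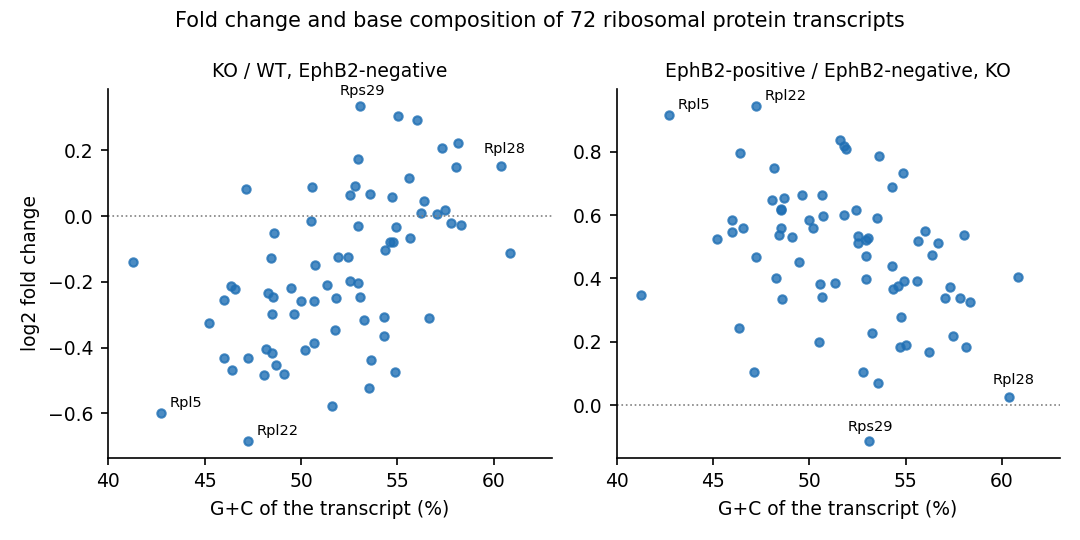
Log2 fold change (y axes) against G+C content of the coding transcript (%, x axis) for the 72 tested members, with 1 point per gene, for KO against WT in EphB2-negative cells (left) and EphB2-positive against EphB2-negative cells in KO (right). Members with more G+C lie higher on the left (rho 0.56) and lower on the right (rho -0.40).

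Many members share sequence with processed pseudogenes or relatives, so the deposited counts depend on how such reads were treated. The share of 50-base windows of the coding transcript that also occur in another gene's transcripts was, among the tested members, 2.96% in Rps3, 93.8% in Rpl5 and 95.1% in Rpl35. Among those at or near 0 reads it was 98.7% in Rps27, 76.4% in Rpl30, 71.3% in Rpl26 and 48.9% in Rpl34. Over the 72 tested members this share had a Spearman rho of 0.11 with the log2 fold change of KO against WT in EphB2-positive cells and 0.13 with that of the sorts in KO. In EphB2-positive cells Rps3, which is nearly free of shared windows, had 1590 and 1580 CPM in WT, 1360, 1240 and 1330 CPM in KO, and a log2 fold change of -0.27.

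Of 20 regulators of ribosomal protein synthesis 7 rose and 5 fell in KO EphB2-positive against EphB2-negative cells, while 26.4% of all genes rose and 29.2% fell. Myc rose by 2.19 ± 0.37 in EphB2-positive cells (adjusted p = 0.0010), with 124, 110 and 103 CPM against 32 and 17.2 CPM. Larp1 rose by 1.51 ± 0.19 (adjusted p = 0.00019), and Gabpa rose by 0.97 ± 0.15 (adjusted p = 0.00062). Larp4 and Rps6kb1 rose as well, at 0.921 and 0.911. Eif4ebp1, which restrains cap-dependent initiation, and Maf1, a repressor of polymerase III, fell by 0.65 and 0.78. The 5 that fell also included Mycn, at -3.255 (adjusted p = 0.0011), and the S6 kinase gene Rps6kb2, at -1.227 (adjusted p = 0.0013). In EphB2-positive cells Mycn was lower in KO, at 0.667, 0.952 and 1.54 CPM against 19.6 and 9.87 CPM in WT (log2 fold change -3.70 ± 0.54, adjusted p = 0.0021), while Larp4 rose by 0.50 ± 0.13 (adjusted p = 0.026) and Maf1 fell by 0.64 (adjusted p = 0.044). In EphB2-negative cells of KO Eif4ebp1 rose by 1.55 ± 0.22 (adjusted p = 0.0016) and Myc fell by 1.23 ± 0.39 (adjusted p = 0.042). With the EphB2-negative libraries alone neither passed (adjusted p = 0.064 and 0.19). Myc was at -0.58 without WT EphB2-negative replicate 1 (adjusted p = 0.18).

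Free Rpl5 and Rpl11 bind Mdm2 and so stabilise p53 when assembly of the large subunit fails. In EphB2-positive cells Rpl11 had 1060 and 909 CPM with IκBα and 801, 803 and 857 CPM without it (log2 fold change -0.26). Of 10 tested genes of this pathway none rose in KO EphB2-positive cells and 2 fell. Cdkn1a, the p53 target p21, had 62.9 and 93.7 CPM in WT and 42.7, 39.5 and 40.1 CPM in KO and fell by 0.94 ± 0.19 (adjusted p = 0.0098), and Sesn2 fell by 1.46 ± 0.35 (adjusted p = 0.021). Among all genes 7.01% rose and 8.07% fell. In the fit of the EphB2-positive libraries alone, where 9 were tested, 2 rose and 4 fell, against 17.8% of all genes higher and 18.1% lower. In EphB2-negative cells of KO Trp53 fell by 1.30 ± 0.32 (adjusted p = 0.015) and Bax rose by 0.70 ± 0.17 (adjusted p = 0.014), both calls lost with the EphB2-negative libraries alone.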

How the data were processed

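Poly(A) RNA of 9 libraries was measured, 2 or 3 in each group of genotype and sort, at postnatal day 6. Per the labels' protocols, cDNA was amplified by long-distance PCR before sequencing. The deposited files hold whole-number counts per gene symbol made with HTSeq on mm10, per the submitters' processing notes and the file names; Bowtie2, FastQC, CASAVA 1.4 and DESeq2 are also named there. For annotation, strand setting and reads with several positions, the sources used here give nothing. The 5 summary lines, which name no gene, stayed out of sums and tests; reads outside genes came to 9.97 to 14.7% of all reads listed and ambiguous reads to 1.89 to 2.28%. Depth was 1503972 to 2074076 reads in genes.

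All 9 libraries were fitted as 4 group means with edgeR 4.0.16 in R 4.3.3 (TMM scaling, filterByExpr, robust quasi-likelihood F test, two-sided, 5 residual degrees of freedom). Adjusted p-values are Benjamini-Hochberg over all 11577 genes tested, with calls under 0.05. Each SE is the fold change (log2) divided by √F, and CPM values carry the TMM scaling. GENCODE models for GRCm38 gave lengths and base composition (23377 of 24421 symbols matched, and 76 of 76 members). The workflow was tested on simulated data. Alternatives were DESeq2's size factors, scaling without the members, other filters, DESeq2 1.42.0, limma 3.58.1 voom, the compared groups alone, a pan-leukocyte covariate, the replicate number or a code in the file names as a block, and each library left out in turn. Named genes were a set of members named by symbol, up to 6 called members with the highest and lowest fold changes, ribosomal protein genes outside the rule, up to 4 called genes by p-value of each other list, and the ends of ranges; Rps15, Rps16, Rps26, Rpl28, Rps28, Polr1c and Myc were named after their values were seen, and Rps3 and Rpl35 for their shared windows. Values of some single genes are not reported here. Members and lists were chosen with earlier results of these data known.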

Additional observations from a re-analysis of the deposited data

Results flagged for a closer look

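Groups of 2 or 3 libraries are too small for a check of single outlying libraries, so the results below are those in which the effect of genotype differed between the sorts. Each value is the log2 fold change of KO against WT in EphB2-positive cells minus that in EphB2-negative cells, tested in the fit of all 9 libraries, and each passed an adjusted p under 0.05 unless stated. Every one rests in part on the WT EphB2-negative pair, whose libraries differ. The values are given from the fit of all libraries. All 19 differences that passed kept their direction without WT EphB2-negative replicate 1 and without its replicate 2. Their calls are less firm than this: without WT EphB2-positive replicate 2 or KO EphB2-negative replicate 2, far fewer of all genes passed.

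Among TOP mRNAs and elongation genes the difference was 1.801 for Npm1, 1.158 for Eif3e, 1.51 for Nap1l1 and 1.562 for Snhg1. Among initiation factors it was 1.391 for Eif4e, 1.678 for Eif2s1, 1.092 for Eif5b and 0.976 for Eif5. Among ribosome biogenesis genes it was 2.035 for Nop58, 1.758 for Ddx21, 1.777 for Ncl and 1.637 for Utp15. Npm1, for example, had 1350 and 1210 CPM in EphB2-positive cells of WT against 1950, 2020 and 1890 CPM in those of KO. In EphB2-negative cells it had 1060 and 547 CPM in WT against 393 and 313 CPM in KO, so that the KO libraries were above WT in one sort and below it in the other.

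Among regulators of ribosomal protein synthesis and the p53 pathway the difference was 1.335 for Larp4, 1.038 for Gabpa, -1.538 for Rps6kb2, -3.373 for Mycn, -1.515 for Cdkn1a and 0.963 for Ccng1. Mrpl50, of the mitochondrial ribosome, had a difference of 1.005. Fau was listed because its KO libraries were all below WT in EphB2-positive cells and all above WT in EphB2-negative cells. Its difference of -0.984 missed the threshold (adjusted p = 0.054).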

How the results depend on the processing

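Scaling, the filters on low counts and the file code block left every count of called members within 1.5 times the value given, with the medians' signs unchanged. Members called in EphB2-positive cells, KO against WT, all lower, numbered 28 with voom, 50 with the compared groups alone and 17 with the pan-leukocyte covariate, against 16.1, 18.1 and 14.4% of all genes lower. Leaving out each library in turn gave 0 to 38 calls and medians of -0.414 to -0.23. In EphB2-negative cells the covariate gave 28 higher (against 11.2% of all genes) and a median of 0.448, and leaving out libraries gave 0 to 52 calls and medians of -0.563 to 0.351. Between the sorts of WT DESeq2 called 3, higher (against 1.13%), the covariate gave a median of -0.183, and leaving out libraries gave 0 to 72 calls and medians of 0.197 to 1.109. Between the sorts of KO voom called 57 and the compared groups alone 58, all higher (against 29.3 and 32.1%), and the covariate 10, lower (against 4.98%), with a median of -0.895. Leaving out libraries gave 0 to 59 calls there, with medians of 0.399 to 0.597. For the difference between the sorts the covariate gave 38 lower (against 8.5%) and a median of -0.73, and leaving out libraries gave 0 to 40 calls and medians of -0.646 to 0.271. A library left alone in its group is assumed to vary like the other groups. The cause of these changes was not tested.

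With the pan-leukocyte covariate, the sort difference in KO reversed to -0.685 for Rps27a, -1.526 for Rps19, -0.753 for Rps4x, -0.596 for Rpl3, -0.373 for Rpl5, -0.346 for Rpl7, -0.887 for Rpl22, -0.304 for Rpl39, -1.52 for Rpl41, -0.698 for Rpl12, -0.656 for Rpl14 and -0.332 for Rps15a. Outside the members it reversed to -0.029 for Rpl7l1, -0.109 for Rpl22l1, -1.35 for Rps27l, -0.519 for Rps3a1, -0.703 for Gnb2l1 and -0.113 for Trp53. Of these, Rps19, Rpl41 and Rps27l passed (adjusted p = 0.0088, 0.027 and 0.029), and the others did not. The genotype difference in EphB2-negative cells reversed to 0.605 for Rps3 and 0.884 for Rps19 with the covariate. Without WT EphB2-negative replicate 1 it reversed to 0.461 for Rps3, 0.696 for Rps19, 0.403 for Rpl3 and 0.415 for Gnb2l1, and the WT sort difference of Rps27l to 0.482. Without replicate 2 these 5 values were -0.547, -0.515, -0.513, -0.485 and -0.419.

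Deviations of same-numbered libraries correlated at 0.132 between the sorts of WT and at 0.038 and -0.071 between those of KO. In a group of 2 libraries the deviations are mirror images, so such correlations cannot decide whether the numbers pair the samples. Libraries that share a code in their file names correlated at 0.132 between the sorts of WT and at 0.071 and 0.108 between those of KO, and a block on that code gave 16 calls between the sorts of KO. A replicate block gave 9 calls in place of 16 between the sorts of KO (against 22.4% of all genes higher), and the other comparisons had 0 calls with it as without it. Without the 20 most abundant other genes the share of member reads was 7.84% in KO EphB2-positive and 5.05% in KO EphB2-negative cells. With the longest transcript the median level was 2220 TPM in WT EphB2-positive, 1660 in KO EphB2-positive and 918 in KO EphB2-negative cells. With the coding transcript, chosen after seeing the data, it was 2590 in WT EphB2-positive, 1740 in WT EphB2-negative, 1970 in KO EphB2-positive and 1100 in KO EphB2-negative cells.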
